A study of Mesocricetus auratus and Mus musculus with 214 samples.

Results

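The 8 genes described here set, copy and remove 5-methylcytosine in golden hamster germ cells and early embryos. They are the DNA methyltransferase genes Dnmt1, Dnmt3a, Dnmt3b and Dnmt3l, the cofactor gene Uhrf1 and the dioxygenase genes Tet1, Tet2 and Tet3. They were picked by name and found by NCBI gene ID, so they are 8 of the 36133 genes in the deposited expression tables.

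In mammals, DNMT1 copies methylation onto the new strand after replication, and UHRF1 binds hemimethylated DNA and brings DNMT1 to it. DNMT3A and DNMT3B methylate new sites, and DNMT3L, which lacks catalytic activity, binds and stimulates them. TET enzymes oxidise 5-methylcytosine, which starts its removal. In the mouse, Dnmt3a and Dnmt3l are needed to set methylation in growing oocytes and in prospermatogonia, Dnmt1 occurs in oocytes as a maternal isoform, and Tet3 oxidises the paternal genome of the zygote. PIWI proteins bind piRNAs and silence transposons, and in mouse prospermatogonia the PIWI pathway directs methylation to transposon copies.

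RNA was measured in bulk libraries of wild-type (WT) hamsters and of hamsters homozygous for a frameshift mutation made with CRISPR/Cas9 in Piwil1, Piwil2, Piwil3 or Piwil4. Oocytes were taken at the germinal vesicle (GV) stage, which is the prophase-arrested oocyte of the ovary, and at metaphase II (MII), the mature egg, from WT and Piwil3-/- females. MII oocytes also came from Piwil2-/- and Piwil4-/- females. Embryos were collected at 11, 34 and 54 hours post egg activation (h.p.e.a.), from WT females or from Piwil3-/- females mated with WT males, so that the embryos called maternal Piwil3-/- carry a WT paternal allele. Testes came from 3 d.p.p. (days post partum) WT, Piwil2-/- and Piwil4-/- males and from adults of WT and all 4 mutants. Spermatocytes were sorted from WT and Piwil1-/- adult testes into spermatogonia with pre-leptotene cells (SPG/PL), leptotene with zygotene cells (LZ), pachytene (P) and diplotene (D). A stage series of 7 germ cell types from spermatogonia to mature sperm was WT only. Group sizes were 3 and 3 (WT and Piwil3-/-) at GV, 4 and 4 at MII and, for embryos of 11, 34 and 54 h.p.e.a., 5 and 5, 4 and 3, and 2 and 2, with 3 Piwil2-/- and 2 Piwil4-/- MII libraries, a second set of 3 WT MII libraries, 2 libraries in each testis and stage series group, and 3 or 4 in each sorted group.

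Values in the oocyte and sorted-cell tables are fragments per kb of gene per 10000 reads of ERCC RNA, an external standard added to each sample, and in the testis table per 1000 ERCC reads. They follow RNA per sample, and fewer cells of a type and less RNA per cell cannot be told apart in them. The stage series is in FPKM, scaled within each library. Genes with values over 2 in 40% or more of the compared libraries were tested, or over 0 where too few genes passed, which was the case in every comparison of 34 or 54 h.p.e.a. embryos with each other and in the mutant comparisons of 3 d.p.p. testes. Then limma was fitted on log2(value + 1), and a gene was called at a Benjamini-Hochberg adjusted p under 0.05 over all genes tested. Log2 differences therefore understate the change of low genes, and folds of group means are given beside them. Of the 44 calls between a pair of groups, 13 were on a gene that passed this bound through its higher group and would not have passed in the lower group alone, so that it could be tested only because it was high there, and these are named beside their results. Counts and p-values that rest on these 13 calls are a description. Labels do not say that libraries of a group came from separate animals. The p-values therefore measure the spread between these libraries, which may be technical.

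Reads behind the values were many for the abundant genes in oocytes, and few for low genes at MII and in some male germ cells. A single read was worth 0.894 to 1.23 units per kb for GV oocytes, 0.159 to 0.522 for MII oocytes and 11 h.p.e.a. embryos, 0.0102 to 0.0219 in the embryos of 34 h.p.e.a. and 0.0344 to 0.08997 in those of 54 h.p.e.a. The disrupted gene itself was checked in each mutant. Piwil3 stood at 24.9% to 32.9% of WT in Piwil3-/- GV, MII and 11 h.p.e.a. libraries, and in later embryos it was at 0 in WT and at most 0.196 in the mutant, which checks nothing. Piwil4 stood at 4.50% of the second WT set in Piwil4-/- MII oocytes (0 and 0.374) and overlapped the first set (0 to 5.87), while Piwil1 and Piwil3, which are not the disrupted genes there, stood at 27.2% and 24.1%. Piwil1 in Piwil1-/- males stood at 49.2% in adult testes (adjusted p = 0.175) and 38.1% in D cells (adjusted p = 0.1503), neither past the test by limma. In the other sorted groups it stood at 16.8% in P (adjusted p = 0.00830), at 4.14% in LZ (adjusted p = 0.362) and at 27.3% in SPG/PL, where it was too low to test. The LZ percentage rests on the WT libraries numbered 1, with Piwil1 at 28.3 and 77.7, against 1.41 and 2.53 in those numbered 2. Piwil1-/- LZ libraries held 0.750, 1.82 and 0.848, which overlapped WT. Piwil2 RNA was too low to test in MII oocytes, where it stood at 93.6% of WT, so those labels could not be checked there, while in Piwil2-/- testes it was at 4.42% (adult) and 5.55% (3 d.p.p.). All 5 measured oocyte markers were detected in every group of the oocyte table. Both sets of WT MII oocytes stood apart, with a summed oocyte marker level of 601 to 686 in the first and 1595 to 1923 in the second. The first set is the WT of the Piwil3-/- comparison, and the second was taken as the WT of the Piwil2-/- and Piwil4-/- comparisons, a pairing the labels do not state. Of the 5 WT libraries at 11 h.p.e.a., 2 are titled 8PEA. Both WT LZ libraries numbered 1 stood apart from those numbered 2, with Uhrf1 at 10.2 and 15.7 against 5.24 and 6.27.

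Dnmt1, the maintenance enzyme, was the most abundant of the 8 genes in every oocyte group, and its RNA fell in steps until 34 h.p.e.a. In WT GV oocytes Dnmt1 stood at 2223, 1906 and 1841 units, a mean of 1990 ± 204 (SD, n = 3). In WT MII oocytes Dnmt1 stood at 763, 577, 603 and 944, a mean of 722 ± 169 (SD, n = 4). The highest MII library was below the lowest GV library. At 11 h.p.e.a. the WT values were 749, 508, 318, 663 and 345, a mean of 517 ± 190 (SD, n = 5) that overlapped MII. At 34 h.p.e.a. only 3.70, 5.64, 1.95 and 0.749 units remained, and 54 h.p.e.a. embryos held 5.29 and 1.305.

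Uhrf1, which guides DNMT1 to replicated DNA, averaged less than Dnmt1 at each of these stages. Uhrf1 stood at 287, 335 and 285 in WT GV oocytes, a mean of 302 ± 28.3 (SD, n = 3). It stood at 53.7, 64.9, 55.1 and 39.4 in WT MII oocytes, all below the GV libraries. At 11 h.p.e.a. it was 56.6, 116, 49.9, 54.9 and 78.1, which overlapped MII. At 34 h.p.e.a. it was 1.32, 0.502, 0 and 0.216, and its 54 h.p.e.a. values were 0.606 and 2.11.

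Among the de novo genes, Dnmt3l was the most abundant and Dnmt3b the least abundant in GV oocytes. Dnmt3l, the noncatalytic partner, stood at 632, 626 and 503 in WT GV oocytes, a mean of 587 ± 72.6 (SD, n = 3). In the WT MII oocytes of the first set it stood at 2.45, 13.4, 2.35 and 6.37, a mean of 6.14 ± 5.18 (SD, n = 4), and in the second set at 32.2, 34.4 and 23.5. The sets did not overlap, so the level of Dnmt3l at MII depends on the set. At 11 h.p.e.a. Dnmt3l was 11.8, 50.1, 30.6, 40.6 and 41.1 in the WT libraries, by 34 h.p.e.a. it was 0 in 3 libraries and 0.0104 (a single read) in the other, and by 54 h.p.e.a. it was 2.03 and 2.38.

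Dnmt3a, a catalytic de novo enzyme, stood at 144, 151 and 138 in WT GV oocytes, a mean of 144 ± 6.24 (SD, n = 3), and at 20.3, 25.97, 19.5 and 28.3 in WT MII oocytes. It was 38.3, 44.5, 28.1, 29.7 and 48.2 at 11 h.p.e.a. and 0.0160 to 0.448 at 34 h.p.e.a. Dnmt3b, the other catalytic de novo enzyme, stood at 5.45, 2.91 and 5.42 in WT GV oocytes and at 2.33, 1.39, 1.48 and 0.958 in WT MII oocytes, and was at 0 in both 54 h.p.e.a. libraries. Dnmt3a was thus the more abundant catalytic enzyme in all WT oocytes, on a scale per kb. Reads that map to several places were counted, so reads that Dnmt3b shares with a near copy, such as the neighbouring Dnmt3c of mice, could not be told apart.

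Tet3 was the main dioxygenase RNA of the oocyte. Tet3 stood at 129, 130 and 137 in WT GV oocytes, a mean of 132 ± 4.57 (SD, n = 3), and at 40.9, 43.3, 43.9 and 39.7 in WT MII oocytes, a mean of 41.9 ± 1.98 (SD, n = 4). At 11 h.p.e.a. it was 29.4, 35.6, 11.9, 26.5 and 23.1, all below the first MII set. Tet1 stood at 6.05, 7.61 and 3.51 in WT GV oocytes and Tet2 at 6.78, 1.06 and 4.41, below Tet3 in every library. Tet2 was at 0 in all 34 and 54 h.p.e.a. libraries of both genotypes. With 3 reads as a limit, a 0 for Tet2 allowed up to 0.00329 to 0.00705 units at 34 h.p.e.a. and 0.0110 to 0.0289 at 54 h.p.e.a., limits that cover counting error only.

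**Figure D1:**
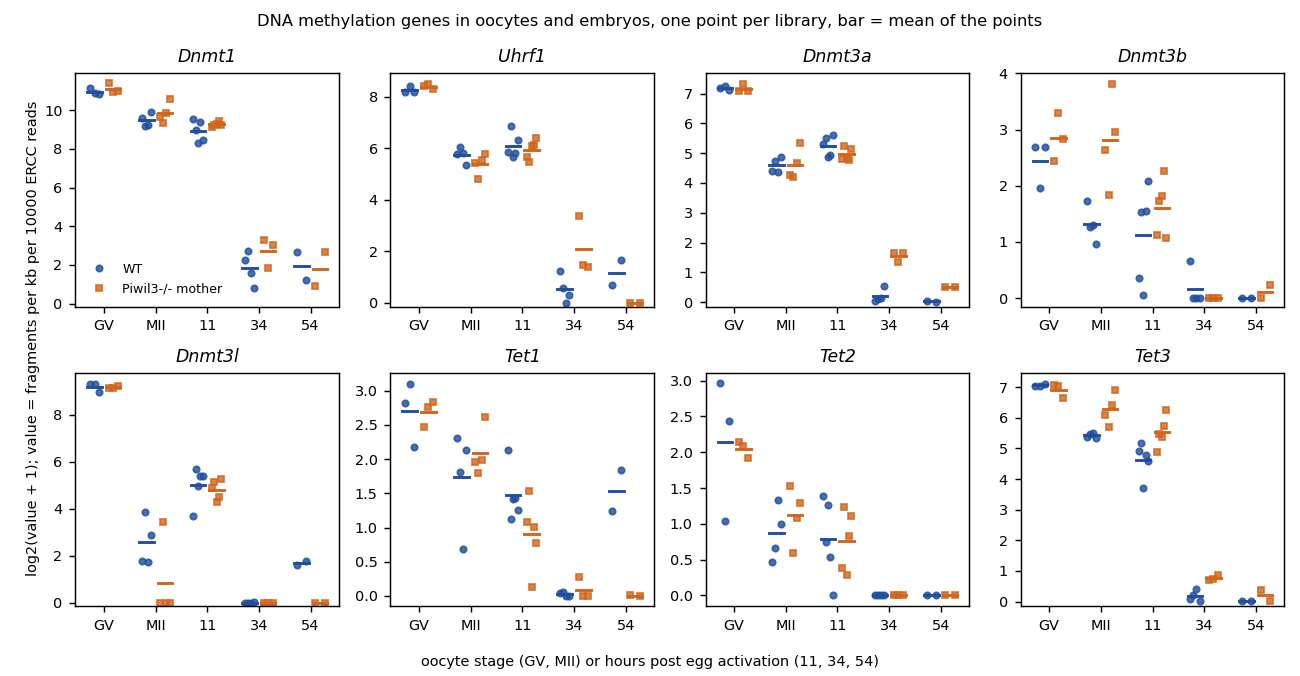
Level of each of the 8 genes as log2(value + 1), the value being fragments per kb per 10000 ERCC reads, by oocyte stage or hours post egg activation, with 1 point for each library (WT circles, libraries of Piwil3-/- females squares, marked Piwil3-/- mother) and a bar at the mean of the points. In WT libraries Dnmt1 runs from 1841 to 2223 units at GV to 0.749 to 5.64 at 34 h.p.e.a., and Dnmt3l from 503 to 632 at GV to 2.35 to 13.4 at MII.

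From GV to MII all 7 members that passed the filter were lower in WT, where 91% of all 12066 genes tested were called and 90.9% were lower. Dnmt3b passed the bound through the GV group. With so many genes called, the members' count is near the background, and the median log2 difference was -1.63 for the members and -2.68 for all genes. Dnmt3l differed most, by -6.63 on the log2 scale (95% interval -7.68 to -5.58, adjusted p = 1.76e-13), and its MII mean was 1.05% of its GV mean. Dnmt1 kept 36.3% of its GV level (log2 -1.49, adjusted p = 0.000964), Tet3 31.8% (log2 -1.63, adjusted p = 9.33e-06), Uhrf1 17.6% (log2 -2.50, adjusted p = 3e-07) and Dnmt3a 16.3% (log2 -2.58, adjusted p = 2.83e-11). Dnmt3b (log2 -1.13, adjusted p = 0.0147) and Tet1 (log2 -0.96, adjusted p = 0.0262) lost their calls without single libraries, Dnmt3b without WT GV replicate 1 (adjusted p = 0.0623) or 4 (0.0591) and Tet1 without WT GV replicate 1 or 3 or WT MII replicate 4. The exact permutation p was 0.0571 for Dnmt1, Uhrf1, Dnmt3a, Dnmt3b, Dnmt3l and Tet3, the smallest that 4 against 3 libraries allow.

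The direction of several of these differences belongs to the ERCC scale. With each library rescaled to its total, the median of all genes moved from -2.68 to -0.81, Dnmt1 stood at 0.83, Tet1 at 0.66 and Tet3 at 0.65, and the calls of Uhrf1 (-0.19) and Dnmt3a (-0.30) were lost. With median ratios the median of all genes was -0.99, Dnmt1 was at 0.59 and Tet3 at 0.41. Neither rescaled difference passed the test with totals, for Dnmt1 (adjusted p = 0.135) or for Tet3 (adjusted p = 0.173), so Dnmt1 and Tet3 RNA fell per ERCC read and no change as a share of the library's RNA was shown. Dnmt3l was called lower under all 15 alternatives, from -7.05 to -4.25, including that of the second MII set.

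From MII to 11 h.p.e.a. 3 of 6 tested members were called in WT, against 24.3% of 8272 genes. Dnmt3l was 5.67-fold higher than in the first MII set (log2 2.46, 95% interval 1.54 to 3.37, adjusted p = 0.000227), and Dnmt3a was at 161% (log2 0.65, adjusted p = 0.0362), both with overlapping libraries. Tet3 was at 60.4% (log2 -0.79, adjusted p = 0.0320), with no overlap and an exact permutation p of 0.0159. Against the second MII set none of the 3 was called, with log2 differences of 0.08 for Dnmt3l (adjusted p = 0.958), -0.04 for Dnmt3a and -0.38 for Tet3 (adjusted p = 0.589). Which set serves as MII therefore decided all 3 calls. Dnmt3a also lost its call without WT 11 h.p.e.a. replicate 1 or 3 or WT MII replicate 1 or 4, and Tet3 without WT 11 h.p.e.a. replicate 2 or 3 or WT MII replicate 1, 2 or 4. Dnmt1 (log2 -0.53, adjusted p = 0.276) and Uhrf1 (log2 0.36, adjusted p = 0.465) did not pass the test.

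Between 11 and 34 h.p.e.a., the one-cell and 2-cell stages of WT embryos, all 5 members tested fell, against 86.2% of 7478 genes called lower and 92.6% called in either direction. Dnmt1 was 172-fold lower (log2 -7.10, adjusted p = 1.93e-20), Uhrf1 140-fold, Dnmt3a 238-fold and Tet3 186-fold. The median of all genes was -2.96. All but Dnmt1 passed the bound through the 11 h.p.e.a. group, so the count of 5 is a description. Each of the 5 gave an exact permutation p of 0.0159, no libraries overlapped, and all 5 calls held in all 17 alternatives. For all but Dnmt1 these values too are a description, since the gene was tested only because it was high at 11 h.p.e.a.

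From 34 to 54 h.p.e.a. 2 of 6 tested members were higher in WT, where 45.2% of 7982 genes were called and 40.9% were higher. Dnmt3l rose from at most 0.0104 to 2.03 and 2.38 (log2 1.67, adjusted p = 0.0249), and Tet1 from at most 0.0418 to 1.35 and 2.59 (log2 1.51, adjusted p = 0.00513). Dnmt3l passed the bound through the 54 h.p.e.a. group. Both rest on 2 libraries at 54 h.p.e.a., and without WT 54 h.p.e.a. replicate 5 neither was called (Dnmt3l 1.59, adjusted p = 0.142; Tet1 1.21, adjusted p = 0.114). Without WT 54 h.p.e.a. replicate 1 Dnmt3l was at 1.75 (adjusted p = 0.095). Uhrf1 (log2 0.64, adjusted p = 0.246), Dnmt3a (-0.18) and Tet3 (-0.15) did not pass the test. Dnmt1 stood at 0.10 on the ERCC scale and at -1.76 and -1.67 after rescaling to totals and by median ratios.

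The effect of the mother's Piwil3 genotype was compared at each stage. In GV oocytes none of the 8 genes was called by limma, and none reached an unadjusted p under 0.05, while 2.31% of 13534 genes were called. Log2 differences ran from -0.14 to 0.41. Dnmt1 stood at 2660, 1978 and 2023 in Piwil3-/- GV oocytes, Dnmt3l at 559, 566 and 584 and Tet3 at 133, 130 and 99.0, so Dnmt1 and Tet3 overlapped WT, as did Dnmt3l.

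At MII 2 of 7 tested members were called in Piwil3-/- oocytes, against 4.68% of 7502 genes. Both called genes passed the bound through their higher group alone, so the count and their p-values are a description. Dnmt3b stood at 5.202, 2.55, 13.1 and 6.77 in Piwil3-/- oocytes, a mean of 6.89 ± 4.46 (SD, n = 4), against 1.54 ± 0.572 (SD, n = 4) in WT. All 4 mutant libraries lay above all 7 WT libraries of both sets, which ran from 0.958 to 2.33. Dnmt3b was 4.48-fold higher (log2 1.49, 95% interval 0.69 to 2.29, adjusted p = 0.0259, exact permutation p = 0.0286, the smallest possible for 4 against 4). Dnmt3b passed the bound of 2 through the mutant group, with 4 of 4 mutant and 1 of 4 WT libraries of the first set over it. The call was lost without Piwil3-/- MII replicate 3 (log2 1.15, adjusted p = 0.121) or 5, without WT MII replicate 2 or 5, and on the scale of library totals.

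Dnmt3l was at 0 in 3 of 4 Piwil3-/- MII libraries, each of which allowed at most 0.461 to 0.554 units, and at 9.72 in the other. WT of the first set ran from 2.35 to 13.4, so that single library lay within WT and the other 3 below it. The log2 difference was -1.71 (95% interval -2.68 to -0.74, adjusted p = 0.0370, exact permutation p = 0.114). Dnmt3l passed the bound through WT, with 4 of 4 libraries over 2 against 1 of 4. The call was lost without Piwil3-/- MII replicate 1, 3 or 5 and without WT MII replicate 2 or 5. Against the second WT set, where Dnmt3l was higher, the difference was -4.08.

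Tet3 stood at 67.2, 50.6, 85.3 and 119 in Piwil3-/- MII oocytes, a mean of 80.5 ± 29.3 (SD, n = 4). All 4 values exceeded the 7 WT values of both sets, 21.6 to 43.9. The mean was 1.92-fold that of the first set, with a log2 difference of 0.86 (95% interval 0.29 to 1.42) that missed the threshold (adjusted p = 0.0751, exact permutation p = 0.0286). Against the second set it was 1.26 (adjusted p = 0.00186), and without Piwil3-/- MII replicate 2 it was 1.05 (adjusted p = 0.0332), both called.

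The other tested members did not pass at MII. Dnmt1 stood at 790, 650, 917 and 1529 in Piwil3-/- MII oocytes (log2 0.38), of which the last lay above all WT libraries. Uhrf1 stood at 41.3, 26.7, 46.0 and 53.4 (log2 -0.36), and Dnmt3a at 18.3, 17.2, 24.2 and 39.9 (log2 0.02). Dnmt3a against the second set was at -0.67 (adjusted p = 0.0468), which turned its direction. Summed oocyte markers were 662 to 944 in Piwil3-/- MII oocytes and 601 to 686 in the first WT set, and the part of this difference in the results was not tested.

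**Figure D2:**
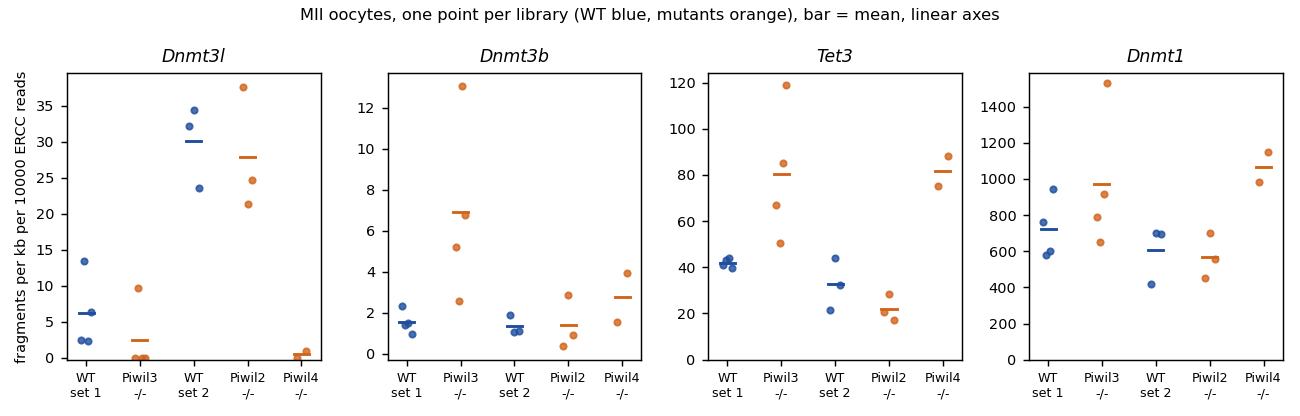
Value of Dnmt3l, Dnmt3b, Tet3 and Dnmt1 (fragments per kb per 10000 ERCC reads, linear axes) in every MII library, 1 point each with a bar at the group mean, with WT set 1 the WT of the Piwil3-/- comparison and WT set 2 the WT of the Piwil2-/- and Piwil4-/- comparisons. Tet3 lies above the 7 WT libraries (21.6 to 43.9) in all 4 Piwil3-/- and both Piwil4-/- libraries, and Dnmt3l differs between the WT sets (2.35 to 13.4 and 23.5 to 34.4).

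At 11 h.p.e.a. none of the 6 tested members was called by limma in maternal Piwil3-/- embryos and 1 of 6 reached an unadjusted p under 0.05, against 1.36% of 8747 genes called. That gene was Tet3, which stood at 28.5, 42.9, 40.9, 51.6 and 74.9 in the mutant embryos, a mean of 47.7 ± 17.3 (SD, n = 5), against 25.3 ± 8.76 (SD, n = 5) in WT. The groups overlapped. The log2 difference of Tet3 was 0.90 (95% interval 0.40 to 1.40, adjusted p = 0.0634, exact permutation p = 0.0238). Without both WT libraries titled 8PEA it was 1.04 and was called (adjusted p = 0.0237), as it was without Piwil3-/- replicate 1, WT replicate 1 or WT replicate 1-8PEA. Dnmt1 stood at 552, 599, 618, 703 and 603, all within the WT range of 318 to 749, and Dnmt3l at 28.4, 34.1, 18.3, 21.5 and 37.8, within 11.8 to 50.1.

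At 34 h.p.e.a. 2 of 5 tested members were called, both higher, against 36.2% of 8032 genes called and 14.9% called higher. Dnmt3a stood at 2.14, 1.56 and 2.11 in maternal Piwil3-/- embryos, a mean of 1.94 ± 0.326 (SD, n = 3), and at 0.0160, 0.0750, 0.0957 and 0.448 in WT. Every mutant library lay above every WT library, and the mean was 12.2-fold higher (log2 1.35, 95% interval 0.87 to 1.83, adjusted p = 2.52e-05). The call on Dnmt3a held in all 13 alternatives. Uhrf1 stood at 9.19, 1.76 and 1.63 against 1.32, 0.502, 0 and 0.216 in WT, also with no overlap, and was 8.24-fold higher (log2 1.55, 95% interval 0.80 to 2.30, adjusted p = 0.00132). Without Piwil3-/- replicate 1, its highest library, Uhrf1 was at 0.91 (adjusted p = 0.0576). The exact permutation p was 0.0571 for both genes, the smallest possible.

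Tet3 and Dnmt1 were also low in both genotypes at this time. Tet3 stood at 0.614, 0.679 and 0.830 in maternal Piwil3-/- embryos, all above the WT range of 0.00396 to 0.315, and its mean was 5.201-fold that of WT. On the log2(value + 1) scale the difference was 0.59 (adjusted p = 0.126), and it was called with a pseudocount of 0.1 and after either rescaling. Dnmt1 stood at 8.62, 2.56 and 7.24 against 0.749 to 5.64 in WT (log2 0.88, adjusted p = 0.0905), with overlap, and was called after either rescaling and without WT replicate 3 (log2 1.18, adjusted p = 0.0220). Dnmt3b, Dnmt3l and Tet2 were at 0 in all 3 mutant libraries. The summed level of the 5 oocyte markers was 79.4 to 175 in these embryos and 5.67 to 29.5 in WT, all 5 being detected in both, and its part in the Dnmt3a and Uhrf1 results was not tested.

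The drop from 11 to 34 h.p.e.a. itself differed between genotypes for the same pair of genes, in a comparison that called 22.4% of all genes and 10% as higher. The difference of the log2 changes, maternal Piwil3-/- minus WT, was 1.64 for Dnmt3a (adjusted p = 0.000298), which was called under all 25 alternatives, and 1.71 for Uhrf1 (adjusted p = 0.0103), which without Piwil3-/- 34 h.p.e.a. replicate 1 was 1.07 (adjusted p = 0.116). Both genes passed the bound of 2 through the 11 h.p.e.a. groups, most of their 34 h.p.e.a. values being under it. Tet3 was at -0.31 on the ERCC scale and at 1.89 and 1.49 after the rescalings, where it was called. From GV to MII no member was called in such a comparison (0 of 7 by limma, 0.215% of all genes), and 2 of 7 had an unadjusted p under 0.05, Dnmt3l at -1.68 (adjusted p = 0.598) and Tet3 at 1.00 (adjusted p = 0.571). From MII to 11 h.p.e.a. none of 7 was called either by limma (0.644% of all genes), and 1 had an unadjusted p under 0.05, Dnmt3l at 1.498 (adjusted p = 0.318).

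At 54 h.p.e.a. 1 of 6 tested members was called, against 27.8% of 9407 genes called and 23.1% called lower. Tet1 stood at 0.00505 and 0 in maternal Piwil3-/- embryos and at 1.35 and 2.59 in WT (log2 -1.54, adjusted p = 0.0232), and lost its call without Piwil3-/- 54 h.p.e.a. replicate 2 or 4 or WT replicate 5. Dnmt3l was at 0 in both mutant libraries, each allowing at most 0.0664 to 0.0993, and at 2.03 and 2.38 in WT (log2 -1.68, adjusted p = 0.0774). Uhrf1 was also at 0 in both mutant libraries and at 0.606 and 2.11 in WT (log2 -1.16, adjusted p = 0.0831). Dnmt3a went the other way, at 0.410 and 0.416 in the mutant against 0.0181 and 0.00933 in WT, a 30.1-fold higher mean with no overlap. Its log2 difference of 0.48 did not pass (adjusted p = 0.277), and it was called with a pseudocount of 0.1 and after either rescaling. Dnmt3b was at 0 in both WT libraries and at 0 and 0.1698 in the mutant, and Tet3 at 0.0190 and 0.0220 in WT and 0.306 and 0.00839 in the mutant (log2 0.17). The summed oocyte markers at 54 h.p.e.a. were 4.85 to 11.6 in the mutant and 8.25 to 13.9 in WT, so they were not higher in the mutant embryos at this time.

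Between 34 and 54 h.p.e.a. the change of Uhrf1 differed between genotypes by -2.71 on the log2 scale (adjusted p = 0.000881), held in all 17 alternatives, in a comparison that called 33.7% of all genes and 20.3% as lower. At 54 h.p.e.a. it was at 0 in both maternal Piwil3-/- libraries and above 0 in both of WT. Tet1 (-1.60, adjusted p = 0.0514) and Dnmt3a (-0.87, adjusted p = 0.101) did not pass. Since development of these embryos is delayed, maternal Piwil3-/- embryos at 54 h.p.e.a. were also set beside the earlier WT group of 34 h.p.e.a. In that comparison none of 6 tested members was called by limma or reached an unadjusted p under 0.05, against 14.5% of all genes called. Uhrf1 stood at -0.52 on the log2 scale (adjusted p = 0.510) and was called lower in 3 alternatives (log2 -2.40 to -2.02). Dnmt3a stood at 0.30 (adjusted p = 0.562) and was called higher in 1 alternative (log2 1.25). The absence of a call therefore does not show that these groups were alike.

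**Figure D3:**
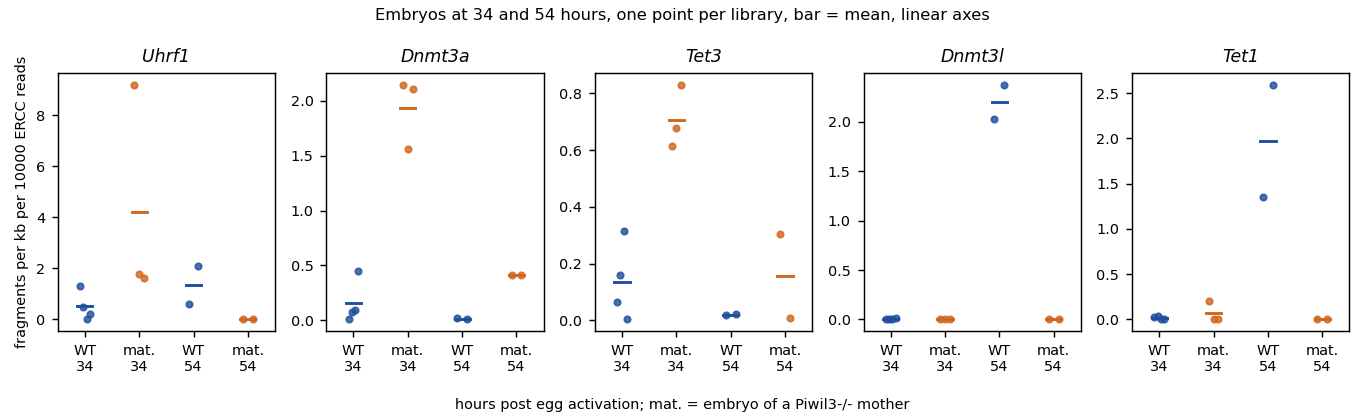
Value of Uhrf1, Dnmt3a, Tet3, Dnmt3l and Tet1 (fragments per kb per 10000 ERCC reads, linear axes) in WT and maternal Piwil3-/- (mat.) embryos of 34 and 54 h.p.e.a., 1 point for each library with a bar at the group mean. At 34 h.p.e.a. Dnmt3a is at 1.56 to 2.14 in the mutant and 0.0160 to 0.448 in WT, and at 54 h.p.e.a. Dnmt3l and Uhrf1 are at 0 in both mutant libraries.

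MII oocytes of Piwil2-/- and Piwil4-/- females were compared with the second WT set. In Piwil2-/- oocytes none of 7 tested members was called by limma, none reached an unadjusted p under 0.05, and 0.862% of 8818 genes were called. Dnmt3l stood at 37.6, 21.3 and 24.6 and Tet3 at 20.5, 28.5 and 17.2, both overlapping WT (log2 -0.13 and -0.52). Against the first WT set Dnmt3l was at 2.24 and called higher (adjusted p = 0.00158), the reverse direction, and Tet3 was at -0.92 and called lower (adjusted p = 0.0220). The result in Piwil2-/- oocytes therefore depends on the set.

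In Piwil4-/- oocytes 2 of 7 tested members were called, against 25.4% of 9189 genes. Dnmt3l stood at 0 (up to 0.306 with 3 reads) and 0.961, below all 7 WT libraries of both sets. It passed the bound through WT. Its log2 difference was -4.45 (95% interval -5.70 to -3.20, adjusted p = 3.07e-06), and it was called in all 13 alternatives, including the first WT set (log2 -2.08, adjusted p = 0.0461). Tet3 stood at 75.2 and 88.4, above all 7 WT libraries, and was 2.51-fold higher (log2 1.35, adjusted p = 0.00644). Against the first WT set it was at 0.94 (adjusted p = 0.138), and without Piwil4-/- replicate 4 at 1.24 (adjusted p = 0.0631). Dnmt1 stood at 982 and 1146, also above all 7 WT libraries, whose range was 419 to 944, and did not pass (log2 0.85, adjusted p = 0.198). The oocyte markers summed to 1151 to 1692 in Piwil4-/- oocytes and 1595 to 1923 in the second WT set, and their part was not tested.

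Testes at 3 d.p.p. held all 8 RNAs, and all were tested. Dnmt3l was the highest of the 8 in WT, at 9.74 and 11.2 units per 1000 ERCC reads, followed by Dnmt1 at 4.25 and 6.05 and Uhrf1 at 3.97 and 5.68. Tet1, Tet2 and Tet3 ran from 0.198 to 0.616. In Piwil2-/- testes none of 8 was called by limma and 1 had an unadjusted p under 0.05, with 0.398% of all genes called, and in Piwil4-/- testes these counts were likewise 0 and 1 of 8, with 0.303% called.

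The single gene with an unadjusted p under 0.05 was Dnmt3l in both mutants. Dnmt3l stood at 8.88 and 5.69 in Piwil2-/- testes and at 7.95 and 6.16 in Piwil4-/- testes, all 4 below both WT libraries. The means were 69.5% and 67.3% of WT, with log2 differences of -0.50 (95% interval -0.86 to -0.13, adjusted p = 0.575) and -0.52 (-0.89 to -0.15, adjusted p = 0.720). Both mutants were set beside the same 2 WT libraries. The summed prospermatogonia markers (4 of 4 detected, Piwil4 among them) were 35.9 to 36.5 in WT, 27.8 to 63.2 in Piwil2-/- and 17.6 to 23.6 in Piwil4-/- testes, and their part was not tested. Piwil4 is the disrupted gene of the Piwil4-/- testes and stood at 13.7% of WT there. Its own loss lowers their sum, which therefore does not measure the number of prospermatogonia. Dnmt3a (2.77 and 2.25, then 2.65 and 2.30) and Dnmt3b (3.01 and 1.89, then 2.51 and 1.43) overlapped WT (2.22 and 3.52, 1.98 and 1.70) in both mutants.

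In WT the adult testis differed from the 3 d.p.p. testis in 3 of 4 tested members, all lower, against 82.9% of 8528 genes called and 15.8% called lower. Dnmt3l stood at 0.677 and 0.969 in the adult, 12.7-fold below 3 d.p.p. (log2 -2.66, adjusted p = 9.6e-09), and Dnmt3a at 0.512 and 0.325, which is 14.6% (log2 -1.43, adjusted p = 2.05e-06). Dnmt1 stood at 2.99 and 2.70 (log2 -0.66, adjusted p = 0.0137) and lost its call without WT 3 d.p.p. replicate 2 (log2 -0.45) or WT adult replicate 2 (log2 -0.61). Uhrf1 stood at 9.14 and 8.16, 1.79-fold above 3 d.p.p., and did not pass (log2 0.74, adjusted p = 0.0599). Dnmt3l and Dnmt3a passed the bound through the 3 d.p.p. group, no adult library being over 2, so the count in this direction is a description, and with either 3 d.p.p. library left out they did not pass it. The median log2 difference of all genes was 1.296, and the cell types of the 2 ages differ, with summed spermatid markers of 0.439 to 0.504 at 3 d.p.p. and 917 to 1741 in the adult.

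In adult testes only Dnmt1 and Uhrf1 passed the filter in the mutant comparisons. In Piwil2-/- testes both were lower, against 64% of all genes called lower and 84.2% called. Uhrf1 stood at 1.92 and 1.21 against 9.14 and 8.16 in WT, 18.1% of WT (log2 -1.92, adjusted p = 0.000117). It was called in all 9 alternatives that tested it. Dnmt1 stood at 1.87 and 1.22, 54.3% of WT (log2 -0.61, adjusted p = 0.0207), and was at -0.42 (adjusted p = 0.184) without Piwil2-/- replicate 2. Both genes passed the bound through WT, no Piwil2-/- library being over 2. With either WT library left out neither gene passed the bound, so neither was tested there.

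In Piwil4-/- adult testes both genes were also lower, against 63.2% of all genes called lower and 82.9% called. Uhrf1 stood at 3.72 and 0.848, 26.4% of WT (log2 -1.71, adjusted p = 0.000354), and at -0.64 (adjusted p = 0.0635) on the scale of library totals. Dnmt1 stood at 2.13 and 1.23 (log2 -0.54, adjusted p = 0.0354), with the call lost without Piwil4-/- replicate 2 (log2 -0.30) and without either WT library. Marker RNAs of meiotic cells were low in both mutants. Spermatocyte markers, 6 of 6 detected, summed to 129 to 143 in WT, 17.02 to 22.02 in Piwil2-/- and 15.5 to 46.9 in Piwil4-/- testes, and Sertoli markers, 6 of 6, to 123 to 160, 691 to 759 and 682 to 1063. The median of all genes was at -1.18 and -1.14. The part of cell composition in the Dnmt1 and Uhrf1 values was not tested.

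In Piwil1-/- adult testes, where spermatocyte markers summed to 173 to 195 and Tnp1 and Prm2 of the spermatid markers were at 0, neither gene was called by limma or had an unadjusted p under 0.05, against 35.9% of all genes called. Uhrf1 stood at 8.69 and 12.5 (log2 0.25) and Dnmt1 at 2.54 and 2.22 (log2 -0.19). In Piwil3-/- testes 0 of 2 were called by limma, 0 had an unadjusted p under 0.05, and 6.31% of all genes were called, with log2 differences of -0.37 for Uhrf1 and -0.32 for Dnmt1. Uhrf1 was thus called lower in the pair of mutants with the lowest spermatocyte marker sums, Piwil2-/- and Piwil4-/-, and the difference between mutants was not tested.

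The other 6 genes were too low to test in adult testes. Dnmt3l was at 0 and 0.0621 in Piwil1-/-, 0 and 0 in Piwil2-/- and 0.0228 and 0 in Piwil4-/- testes, beside 0.677 and 0.969 in WT and 0.664 and 0.620 in Piwil3-/- testes. A value of 0 allowed at most 0.0574 to 0.105 units. Tet1 stood at 0.271 and 0.336 in Piwil2-/- and 0.203 and 0.148 in Piwil4-/- testes, above 0.0154 and 0.0184 in WT. Dnmt3l was thus lowest in the 3 mutants with little spermatid marker RNA (at most 34.9, beside 917 to 1741 in WT), and Tet1 was highest in the 2 with the highest Sertoli marker sums, and the part of cell composition in either was not tested.

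**Figure D4:**
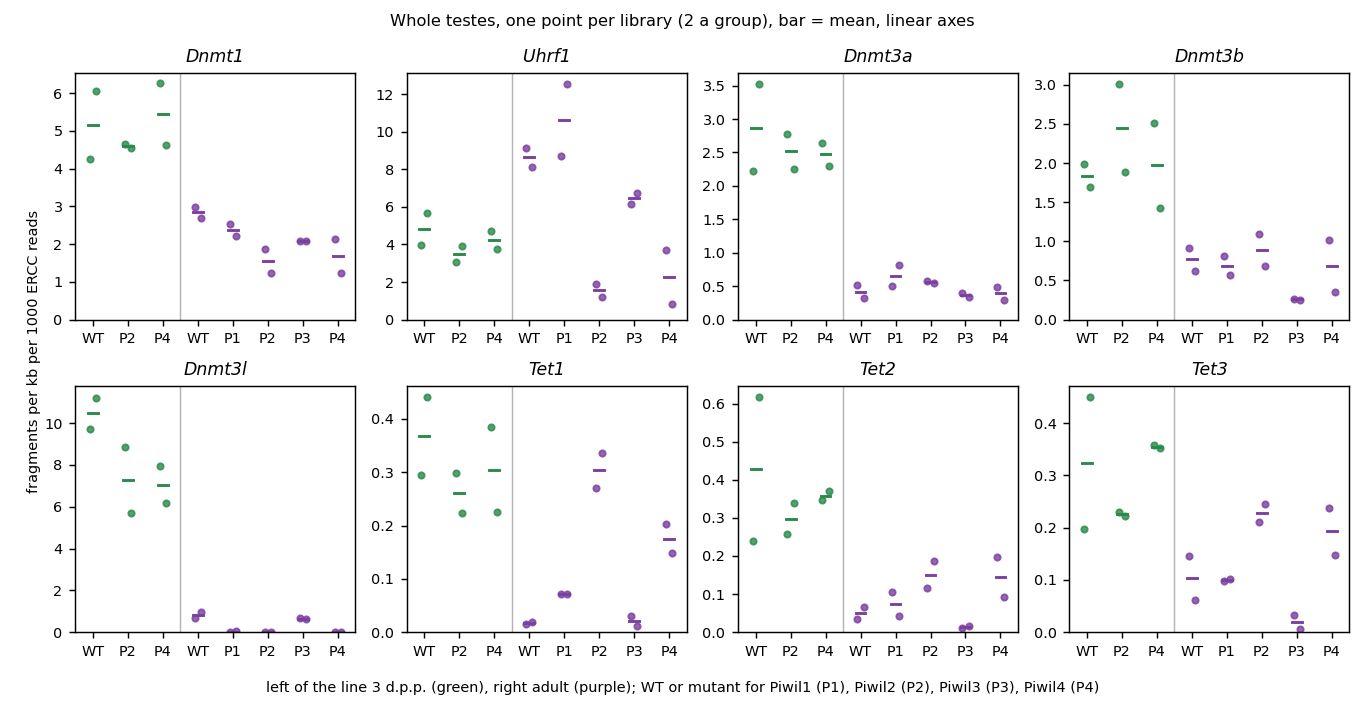
Value of each of the 8 genes (fragments per kb per 1000 ERCC reads) in each testis library, by age and genotype, on linear axes with a bar at the mean of the 2 libraries of a group. Dnmt3l is at 9.74 and 11.2 in WT at 3 d.p.p. and at most 0.969 in any adult testis, and Uhrf1 is at 8.16 and 9.14 in WT adults and at most 3.72 in Piwil2-/- and Piwil4-/- adults.

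Sorted spermatocytes showed where in meiosis Uhrf1 and Dnmt1 RNA lay in the adult. In WT, Dnmt1 stood at 6.84, 9.67, 8.71 and 6.94 in SPG/PL, 2.31, 2.86, 2.41 and 2.59 in LZ, 6.67, 7.06, 5.57 and 5.07 in P and 9.22, 9.97, 6.60 and 6.84 in D. Uhrf1 stood at 13.4, 19.1, 17.97 and 13.3 in SPG/PL, 10.2, 15.7, 5.24 and 6.27 in LZ, 57.3, 50.5, 37.1 and 44.2 in P and 62.3, 64.01, 62.04 and 64.4 in D. Both genes had their lowest mean in LZ, and every P library lay above every LZ library.

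From SPG/PL to LZ both fell, against 60.1% of all genes called and 26% lower. Dnmt1 was at 31.6% (log2 -1.34, adjusted p = 1.74e-08, exact permutation p = 0.0286) and Uhrf1, with overlap, at 58.7% (log2 -0.80, adjusted p = 0.00113, exact permutation p = 0.0857), and both calls held in all 17 alternatives. From LZ to P both were higher, against 88.8% of all genes called and 81.8% higher. Uhrf1 was 5.05-fold higher (log2 2.31, adjusted p = 1.7e-11) and kept its call in all 17 alternatives, with differences from 0.75 to 2.82. Dnmt1 was 2.40-fold higher (log2 1.00, adjusted p = 9.05e-07) on the ERCC scale but stood at -0.37 (called lower, adjusted p = 0.0277) and -0.17 after the rescalings, which moved the median of all genes from 1.43 to -0.15 and 0.12. From P to D, where 66.4% of all genes were called and 57.2% were higher, Dnmt1 was at 0.36 (adjusted p = 0.0423), lost without WT D replicate 1A or 1B or WT P replicate 2A or 2B and when A and B libraries were averaged (adjusted p = 0.0918), and at -0.23 and -0.02 after the rescalings. Uhrf1 did not pass (log2 0.43, adjusted p = 0.0658).

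The de novo and dioxygenase genes were low in sorted cells, and Dnmt3a, Dnmt3b and Tet3 had their highest WT mean in SPG/PL. In WT Dnmt3a averaged 1.89 ± 0.341 in SPG/PL, 0.459 ± 0.139 in LZ, 0.283 ± 0.117 in P and 1.20 ± 0.316 in D (SD, n = 4 each). Dnmt3b averaged 2.85 ± 0.781 in SPG/PL, 0.730 ± 0.166 in LZ, 0.687 ± 0.0715 in P and 0.13996 ± 0.122 in D. Tet3 averaged 0.475 ± 0.0542 in SPG/PL and 0.0817 ± 0.0504 in LZ and was at 0 in all 8 WT P and D libraries. SPG/PL and LZ did not overlap for these 3 genes, each with an exact permutation p of 0.0286 (0.142 after Benjamini-Hochberg adjustment over 114 such tests). Dnmt3l was at 0 in 26 of the 30 sorted libraries and no higher than 0.200 (a single read), Tet1 at 0 in 19 and Tet2 in 12.

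In Piwil1-/- spermatocytes 1 member was called in 1 of the 4 stages. In D, where 10.3% of all genes were called and 1.89% were lower, Dnmt1 stood at 4.84, 4.59, 4.91 and 6.72, a mean of 5.26 ± 0.983 against 8.16 ± 1.69 in WT (SD, n = 4 each), with overlap. It was at 64.6% of WT (log2 -0.54, adjusted p = 0.0195, exact permutation p = 0.0571), and the call was lost without Piwil1-/- D replicate 1A, 1B or 2A or WT D replicate 1A or 1B, and when A and B libraries were averaged (adjusted p = 0.101). Uhrf1 in D stood at 56.1, 55.3, 60.04 and 59.8, all below WT, by -0.13 on the log2 scale (adjusted p = 0.903, exact permutation p = 0.0286). By limma 0 of 4 tested members were called in SPG/PL (0.0166% of all genes), 0 of 2 in LZ (0.0172%) and 0 of 2 in P (2.81%), and 0 of them had an unadjusted p under 0.05. Uhrf1 in Piwil1-/- P cells stood at 52.3, 38.6, 54.2 and 42.4, within the WT range of 37.1 to 57.3.

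**Figure D5:**
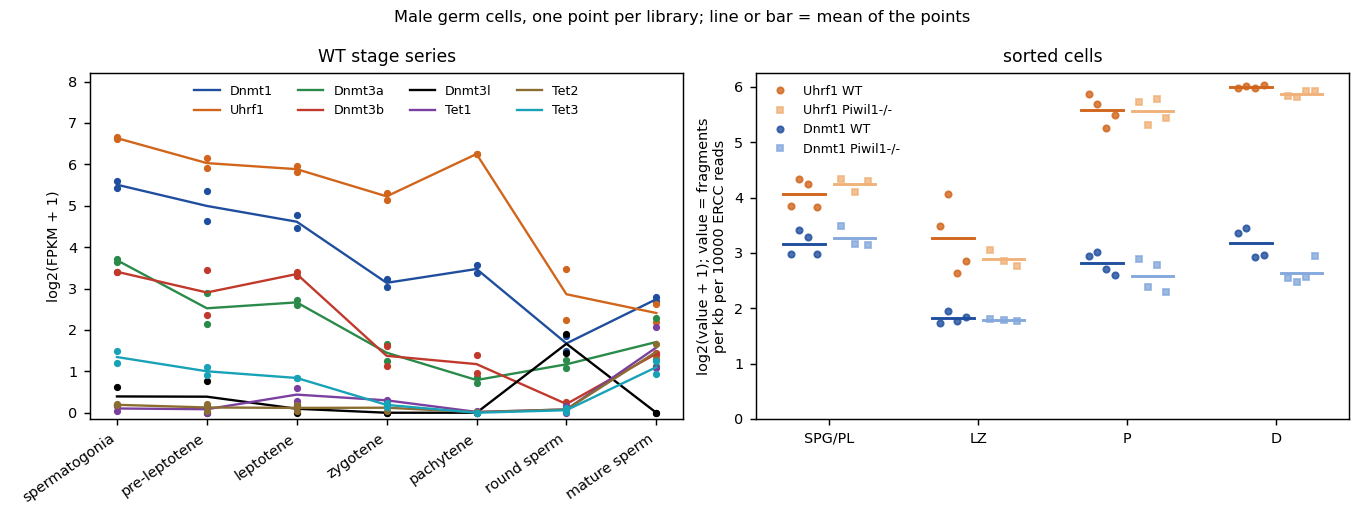
The 8 genes in the WT stage series as log2(FPKM + 1), left, and Uhrf1 and Dnmt1 in sorted WT and Piwil1-/- cells as log2(value + 1), right, the value being fragments per kb per 10000 ERCC reads, with 1 point for each library and a line or bar at the mean of the points. Uhrf1 is at 5.24 to 15.7 in WT LZ and 37.1 to 57.3 in WT P, and in the stage series falls from 75.5 and 74.6 in pachytene to 3.74 and 10.2 in round sperm.

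The WT stage series, on another scale and with its own cells, placed the same genes along spermatogenesis. Uhrf1 stood at 96.5 and 100 FPKM in spermatogonia, 70.2 and 58.9 in pre-leptotene, 54.9 and 61.3 in leptotene, 38.7 and 34.3 in zygotene, 75.5 and 74.6 in pachytene, 3.74 and 10.2 in round sperm and 3.58 and 5.16 in mature sperm. Dnmt1 stood at 47.2 and 41.9 in spermatogonia, 40.02 and 23.8 in pre-leptotene, 21.01 and 26.2 in leptotene, 8.39 and 7.24 in zygotene, 10.8 and 9.41 in pachytene, 1.82 and 2.61 in round sperm and 5.89 and 5.50 in mature sperm. In its means Uhrf1 thus had a low in zygotene and a second high in pachytene. Its fall from leptotene to zygotene was not called by limma (log2 -0.66, adjusted p = 0.164).

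Stage by stage, no member was called from spermatogonia to pre-leptotene (0 of 4 by limma, 6.16% of all genes) or from there to leptotene (0 of 4, 5.26%), and the only unadjusted p under 0.05 was that of Dnmt3a in the first step (log2 -1.16, adjusted p = 0.0883). In zygotene Dnmt1 (log2 -1.48, adjusted p = 0.00209), Dnmt3b (log2 -1.98, adjusted p = 0.00189) and Dnmt3a (log2 -1.22, adjusted p = 0.0362) were lower than in leptotene, 3 of 4 tested against 26.8% of all genes called and 19.5% lower, and Dnmt3a lost its call without any 1 of the 4 libraries. Dnmt3b stood at 8.91 and 9.50 FPKM in leptotene and 2.07 and 1.19 in zygotene, and Dnmt3a at 5.58 and 5.11 and at 2.15 and 1.37. In pachytene Uhrf1 was higher than in zygotene (log2 1.02, adjusted p = 0.0181), the 1 call of 2 tested against 57.1% of all genes called and 24.2% higher, which no longer held without any 1 of the 4 libraries. In round sperm Uhrf1 (log2 -3.39, adjusted p = 2.46e-06) and Dnmt1 (log2 -1.80, adjusted p = 6.83e-05) were lower than in pachytene, 2 of 2 tested where 82.2% of all genes were called and 41.4% were lower. In mature sperm Dnmt1 was higher than in round sperm (log2 1.07, adjusted p = 0.00288), the 1 call of 2 tested against 78.3% of all genes called and 46.5% higher.

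Dnmt3l was near 0 through the stage series, with the exception of round sperm at 1.70 and 2.73 FPKM from 17 and 29 reads, and was 0 in both mature sperm libraries, which allowed at most 1.04 to 1.18. Tet3 stood at 1.82 and 1.28 in spermatogonia, 0 and 0 in pachytene and 1.39 and 0.921 in mature sperm. Tet1 was at 3.22 and 1.11 and Tet2 at 2.16 and 1.44 in mature sperm. Macrophage and blood markers, 3 of 3 detected, summed to 84.6 to 150 FPKM in mature sperm and 2.69 to 3.75 in round sperm, and Sertoli markers to 107 to 124 and 28.4 to 39.2, and their part in the mature sperm values of Dnmt1 and the Tet genes was not tested.

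Other genes of the methylation machinery, 24 of 25 listed genes that were found in the tables, were counted in the same comparisons. From GV to MII 16 of 18 tested were lower and 0 higher, against 90.9% of all genes lower, among them Pcna, the replication clamp that binds DNMT1, at -4.17 on the log2 scale. From 11 to 34 h.p.e.a. 9 of 11 were lower, against 86.2%, among them Dppa3, which protects maternal methylation in the mouse zygote, at -3.77, and from 34 to 54 h.p.e.a. 7 of 12 were higher, against 40.9%, led by Pcna at 4.20. In Piwil3-/- oocytes 0 of 21 were called at GV (2.31% of all genes), 1 of 14 at MII (4.68%; Trim28, a corepressor that keeps imprints methylated in the mouse, at 1.44) and 0 of 16 at 11 h.p.e.a. (1.36%). At 34 and 54 h.p.e.a. 3 of 12 and 3 of 16 were lower and 0 higher in maternal Piwil3-/- embryos, against 21.3% and 23.1% of all genes lower, among them the repair endonuclease gene Apex1 at -4.50 at 34 h.p.e.a. and Mbd3, of the methyl-CpG binding domain family, at -2.51 at 54 h.p.e.a. At 3 d.p.p. 0 of 24 were called in either mutant (0.398% and 0.303%). From LZ to P 9 of 12 were higher and 0 lower, against 81.8% higher, with Trim28 at 3.29, and in zygotene the chromatin remodeller gene Hells was at -1.83, with 6 of 18 lower and 3 higher, against 19.5% and 7.31%. These counts were near the shares over all genes in most of the comparisons given here. Some comparisons not given above stood further from them. From P to D 0 of 12 were higher and 4 lower, against 57.2% and 9.16% of all genes. From pachytene to round sperm 4 of 15 were higher and 11 lower, against 40.8% and 41.4%. From zygotene to pachytene 2 of 17 were higher and 2 lower, against 24.2% and 32.9%.

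Genes whose levels followed those of the 8 across libraries were looked up by the Pearson correlation of log2(value + 1), as a description. Over the 43 oocyte and embryo libraries and 8319 genes, the nearest gene to Dnmt1 was Naa35 (r = 0.992), to Uhrf1 Fam167a (0.987), to Dnmt3a Fam167a (0.992), to Dnmt3l Fam149a (0.965), to Tet1 Atpaf1 (0.883) and to Tet3 Slc35b3 (0.988). These libraries share the large loss of RNA between stages, which gives many pairs of genes a high correlation. Over the 14 stage series libraries and 11669 genes, the nearest to Dnmt1 was Med22 (0.983), to Uhrf1 Smarca4 (0.985), to Dnmt3a Coq10a (0.983) and to Dnmt3b Madd (0.963).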

How the data were processed

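The 8 genes, the partner list and the marker lists were chosen with earlier results of these data known. RNA libraries were made with Smart-seq2 and ERCC standards. Per the study's methods the authors trimmed reads (Trim Galore 0.5.0), aligned them (STAR 2.9) and counted fragments per gene (featureCounts 1.6.4), with multimapping reads counted and without strand. The deposited values are ratios, fragments per kb per 10000 ERCC reads (per 1000 in testes), and for the stage series FPKM, whose total is not stated. The counted length of each member was taken as the shortest that turned its low values into whole numbers of reads. All 103 values of each member were then whole within 0.02, or within a wider limit at high counts. Since the length was chosen for this, it is no independent check. Of 105 library columns, 2 could be tied to no sample and were left out, and 111 small RNA samples were not analysed here. All 36133 gene IDs matched the RefSeq gene table of BCM_Maur_2.0.

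limma 3.58.1 (R 4.3.3, lmFit and eBayes with trend) was fitted on log2(value + 1) with all groups of a table. A gene needed a value over 2 in 40% of the compared libraries, or over 0 where fewer than 5000 genes passed, and a Benjamini-Hochberg adjusted p under 0.05 over all genes tested was a call. Exact two-sided permutation tests over libraries (scipy 1.17.1, Python 3.11.15, numpy 2.4.6, pandas 2.3.3) numbered 114, and none passed 0.05 after adjustment. All 8 members were looked up in every comparison, and the text gives the values of only some of them in several comparisons. At most 3 partner genes were named for each comparison, and likeness was the Pearson correlation with genes over the same bound. Alternatives were a pseudocount of 0.1, no filter or a bound of 5, rescaling to library totals or by median ratios, a fit on the compared groups only, the replicate block, the other WT MII set, averaged A and B libraries, and each library left out in turn. The fits were tested on simulated data. The main fits held no pairing, and the replicate block was run as an alternative in every comparison. Same-numbered libraries deviated together in all 4 pairs of WT P against LZ (r = 0.12 to 0.18). All 4 pairs of WT D against P (0.03 to 0.24) and of WT LZ against SPG/PL (0.003 to 0.12) also had r above 0. A 0 was given the limit of 3 reads. Figures were drawn with matplotlib 3.10.9.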

Additional observations from a re-analysis of the deposited data

Results flagged for a closer look

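In 10 of the 76 gene and group pairs with 4 to 10 libraries, the highest library stood apart from the rest by Dixon's criterion. Its chance rate of about 5% of groups assumes normally distributed values. A group with a single library above 0 is always flagged, so the count of 10 cannot be read against that rate. Of these, 8 were genes near the detection limit or genes at 0 in other libraries of the group: Dnmt3b at 0.583 in WT 34 h.p.e.a. replicate 1, Dnmt3l at 0.0104 in WT 34 h.p.e.a. replicate 5, Dnmt3l at 9.72 in Piwil3-/- MII replicate 2, Dnmt3l at 0.200 in Piwil1-/- D replicate 2A and at 0.0386 in WT LZ replicate 2A, Tet1 at 0.0283 in WT P replicate 1B, Tet2 at 0.0250 in Piwil1-/- D replicate 1B and Tet3 at 0.0225 in Piwil1-/- D replicate 2B. The other 2 were Tet1 at 3.39 in a WT 11 h.p.e.a. library titled 8PEA and Dnmt1 at 6.72 in Piwil1-/- D replicate 2B. The Dnmt3l value of 9.72 is the library that lay within the WT range while the other 3 Piwil3-/- MII libraries were at 0.

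The change between stages differed between maternal Piwil3-/- and WT embryos by an interaction test in 3 cases. Uhrf1 differed by 1.71 and Dnmt3a by 1.64 on the log2 scale from 11 to 34 h.p.e.a., and Uhrf1 by -2.71 from 34 to 54 h.p.e.a. Dnmt3a and the later Uhrf1 difference were called under every alternative run on them. In the earlier interval both genes passed the bound through the 11 h.p.e.a. groups.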

How the results depend on the processing

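Of the 47 calls on the 8 genes in 162 tests over 36 comparisons, 21 kept direction and threshold under every alternative run on them, 23 lost the threshold and 6 turned direction under at least 1, and 29 tests that gave no call gave one under at least 1. Alternatives in which a gene did not pass the bound were left out of these counts. The cause was not tested for any of these changes. Low values limit Dnmt3b, Dnmt3l and the Tet genes, for which few reads decide a level in male germ cells and in embryos at 34 and 54 h.p.e.a. Few reads also lie behind the low values of Dnmt3b and Dnmt3l in MII oocytes.

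The number of calls in the WT oocyte transitions (17) was 8 after rescaling to totals and 8 with median ratios. In Piwil3-/- against WT (5) it was 8 with a pseudocount of 0.1, 8 with median ratios, 1 with a bound of 5 and 1 when the fit held the compared groups only. In the change between stages (3) it was 6 with totals, 5 with median ratios and 6 with the other WT MII set, and in Piwil3-/- at 54 against WT at 34 h.p.e.a. (0) it was 2 with a pseudocount of 0.1, 1 with totals and 1 with median ratios. In Piwil2-/- and Piwil4-/- MII oocytes (2) it was 1 with a pseudocount of 0.1 and 1 with totals. In adult testes (4) it was 8 without the filter, 2 with a bound of 5, 1 with totals and 2 with median ratios, and in WT adult against 3 d.p.p. testes (3) it was 7 without the filter and 1 with a bound of 5. In WT sorted cells (5) it was 9 without the filter, in Piwil1-/- sorted cells (1) it was 0 with the compared groups only and 0 with A and B libraries averaged, and in the stage series (7) it was 13 without the filter and 11 with median ratios. Leaving out single libraries gave 14 to 17, 3 to 6, 2 to 5, 0 to 0, 1 to 2, 1 to 4, 0 to 7, 4 to 6, 0 to 2 and 5 to 8 calls in these comparisons in the order given, and 0 to 1 in the 3 d.p.p. mutants (0). Without both WT LZ libraries numbered 1, an alternative chosen after seeing the data, the sorted counts were 6 and 1.

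Log2 differences that turned direction were those of Dnmt1 (0.83 with totals, 0.59 with median ratios), Tet3 (0.65, 0.41) and Tet1 (0.66 with totals) from GV to MII, Dnmt1 from 34 to 54 h.p.e.a. (-1.76, -1.67), Tet3 in the genotype difference from 11 to 34 h.p.e.a. (1.89, 1.49), and Dnmt1 from LZ to P (-0.37, -0.17) and from P to D (-0.23, -0.018). With the other WT MII set they were Dnmt3a from MII to 11 h.p.e.a. (-0.037), Dnmt3a in Piwil3-/- MII (-0.67) and Dnmt3l in Piwil2-/- MII oocytes (2.24).

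With the replicate block the counts were 16, 5, 3, 0, 3, 4, 3, 5, 1 and 7 in the same order and 0 in the 3 d.p.p. mutants. The block lost Tet3 from MII to 11 h.p.e.a. (adjusted p = 0.0635) and Tet1 in Piwil3-/- at 54 h.p.e.a. (adjusted p = 0.0501) and gained Dnmt3l there (adjusted p = 0.0376) and Tet2 in Piwil4-/- MII oocytes (adjusted p = 0.0331). For WT P against LZ, where same-numbered libraries deviated together (r = 0.12 to 0.18), the block changed no call. Same-numbered libraries also deviated together for WT D against P (r = 0.03 to 0.24) and WT LZ against SPG/PL (0.003 to 0.12). In the stage series r was 0.28 for pre-leptotene against spermatogonia and 0.21 for leptotene against pre-leptotene. In these the number may also mark a pairing, which the main fits left out.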

Other observations

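Counted over all comparisons, Dnmt1 was called in 12 of its 36 tests, Uhrf1 in 11 of 36, Dnmt3a in 7 of 23, Dnmt3l in 7 of 16, Tet3 in 4 of 18, Dnmt3b in 3 of 13, Tet1 in 3 of 15 and Tet2 in 0 of 5 by limma, with 1 of the 5 at an unadjusted p under 0.05. Comparisons share libraries, so these tests are not independent of each other.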
